A study of Mus musculus with 8 samples.

Results

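The heat shock chaperones described here are 10 genes of protein folding and its regulation: Hspe1, Hspd1, Hspa1a, Hspa1b, Hspa8, Hsp90aa1, Hsp90ab1, Dnajb1, Hsph1 and Hsf1. Members were found by symbol, as probe sets that the platform annotation gives to one of these genes alone. This gave 13 probe sets for 7 of the 10 genes, among 21640 probe sets for 19937 genes. Hspa1b shares 1 probe set with Hspa1a and has none of its own, and Hsp90ab1 and Hsf1 were not analysed here. Where a gene had several probe sets, the one with the highest mean over the 8 arrays is called its main probe set.

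Total RNA came from splenic B cells of adult mice, sorted as positive for CD22 and B220, with 4 samples from Sca1-HGAL mice, 4 from wild-type littermates (Control), and 1 array for each sample. Both groups had the CBAxC57BL/6J background. The Sca1-HGAL mice carry HGAL (GCET2), an adaptor protein of human germinal centre B cells, under the Sca1 (Ly-6E.1) promoter, which is not restricted to B cells. The labels call the genotype knock-in while the design text calls the mice transgenic. No label states that the 4 samples of a group are different animals, so a p-value here speaks only to how these samples vary. Levels are log2 intensities, and a log2 fold is Sca1-HGAL minus Control with its standard error (SE).

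Chaperones bind unfolded proteins and help them fold, and every cell makes some of them all the time. The cytosolic HSP70 and HSP90 systems pass client proteins, kinases among them, from a J-domain protein to HSP70 and on to HSP90. A chamber made of HSP60 and HSP10 folds proteins inside mitochondria. Under heat or other stress, the transcription factor HSF1 binds heat shock elements, repeats of the letters GAA and TTC in alternating orientation, and switches on the inducible members. Tissue dissociation and sorting are known to induce some of these genes, together with immediate early genes.

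The start regions of 4 members are shown with the heat shock element letters in capitals, a 4-unit match in Hspe1 and a 2-unit match in each of the other 3 printed stretches. They are the 250 bases before the transcript start, 5′ to 3′ on the gene's strand, from RefSeq on GRCm38.p6. The Hspe1 stretch is chr1:55087898-55088147 on the plus strand, the Hspa1a stretch chr17:34972157-34972406, the Hspa1b stretch chr17:34959239-34959488 and the Hsph1 stretch chr5:149636337-149636586, the last 3 on the minus strand.
Hspe1: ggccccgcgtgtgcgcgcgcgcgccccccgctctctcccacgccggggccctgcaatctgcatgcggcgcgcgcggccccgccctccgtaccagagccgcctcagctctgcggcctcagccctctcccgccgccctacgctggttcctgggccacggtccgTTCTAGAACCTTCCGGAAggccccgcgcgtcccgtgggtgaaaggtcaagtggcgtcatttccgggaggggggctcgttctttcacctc
Hspa1a: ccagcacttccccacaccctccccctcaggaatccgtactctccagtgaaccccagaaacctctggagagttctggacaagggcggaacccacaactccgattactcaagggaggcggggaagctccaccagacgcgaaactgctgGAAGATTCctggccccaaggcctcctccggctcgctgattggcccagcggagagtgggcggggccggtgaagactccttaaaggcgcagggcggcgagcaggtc
Hspa1b: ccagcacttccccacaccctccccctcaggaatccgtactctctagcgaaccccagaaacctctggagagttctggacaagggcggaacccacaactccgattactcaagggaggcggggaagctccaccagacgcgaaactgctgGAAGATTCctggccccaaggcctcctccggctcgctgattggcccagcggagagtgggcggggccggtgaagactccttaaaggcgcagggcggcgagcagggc
Hsph1: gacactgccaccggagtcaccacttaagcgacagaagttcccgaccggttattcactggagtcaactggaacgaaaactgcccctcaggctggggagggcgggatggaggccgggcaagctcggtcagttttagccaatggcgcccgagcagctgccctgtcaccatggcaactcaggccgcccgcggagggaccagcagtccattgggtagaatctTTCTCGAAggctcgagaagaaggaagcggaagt

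The reference table of start windows, each with 250 bases before and 50 from the start, held 9 windows for 6 of the 10 members. In each window the letters GAANNTTC and TTCNNGAA (2 units) were searched, which read the same on both strands. Their extensions to 3 units (GAANNTTCNNGAA and TTCNNGAANNTTC, each the reverse complement of the other) and to 4 units were searched too. A longer match contains the shorter ones. Of all 32851 windows, 15.1% held a match of at least 2 units, 0.603% one of at least 3 and 0.0244%, or 8 windows, one of 4. Hspe1 had the 4-unit match, at positions -89 to -72 from its start. Hspd1 lies head to head with Hspe1, and the window of its second start shares 285 bases with that of Hspe1, so both genes hold the same 4-unit match and count as 2 of the 8 windows. Hsph1 had a 2-unit match before its start and a 3-unit match, TTCTGGAAAGTTC, from 36 to 48 bases after it. Hspa1a and Hspa1b had a single 2-unit match. Neither Dnajb1 window nor the window of the first Hspd1 start held these letters. The 250 printed bases of Hspa1a and Hspa1b were identical at 247 positions and differed by C44T, T47C and T249G, with Hspa1a first and positions counted from 1 at the 5′ end. A match is a run of letters and not a measured binding site.

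**Figure D1:**
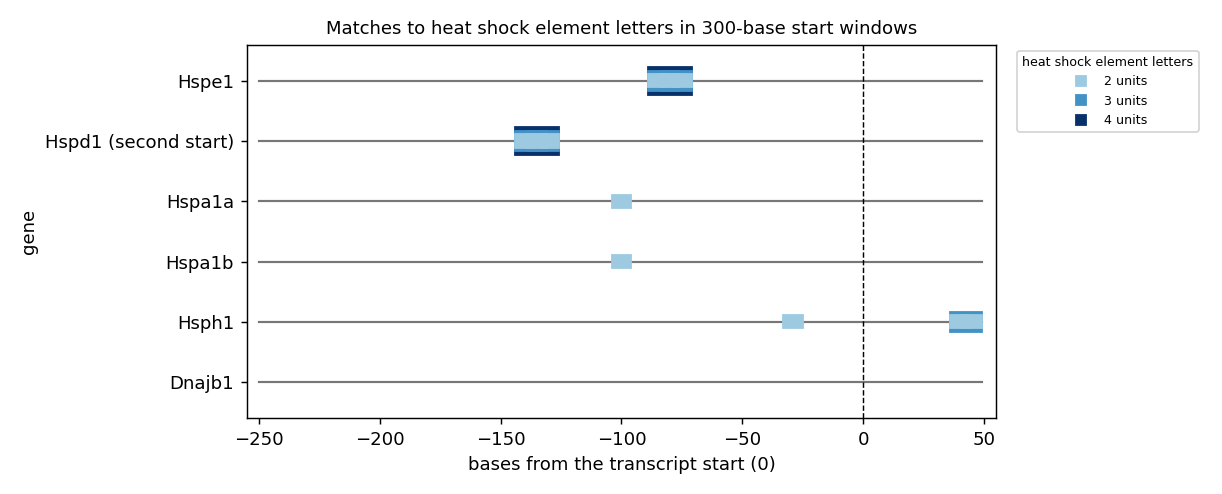
Positions of heat shock element letters along 300-base windows (x axis, bases from the transcript start, dashed line) for 6 genes, with colour and height for matches of 2, 3 or 4 units. Hspe1 and Hspd1 show the 4-unit match, Hsph1 a 3-unit match after its start, and Dnajb1 none.

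The comparison asks whether the chaperone genes differ between B cells with and without HGAL. None of the 7 measured genes passed limma at a Benjamini-Hochberg adjusted p under 0.05, with adjusted p from 0.50 to 0.95, and 1, Hspe1, had an unadjusted p under 0.05, against 9.53% of all genes. Over all probe sets, 0.00462% passed the adjusted threshold and 9.59% had an unadjusted p under 0.05, 4.06% lower and 5.53% higher in Sca1-HGAL. The log2 fold was negative for 6 of the 7 genes, with a median of -0.16 and a range from -0.27 to 0.06. That median rested on single arrays: it was -0.04 without Sca1-HGAL replicate 2, -0.07 without Control replicate 1 and -0.25 without Sca1-HGAL replicate 3. In the last case all 7 genes were negative and 3 had an unadjusted p under 0.05, but none passed the adjusted threshold. Over all genes 43.6% were negative and the median was 0.02. Of the 13 probe sets, 12 were negative, against 43.9% of all probe sets, 3 had an unadjusted p under 0.05, all lower, and 1 had groups that did not overlap, against 5.45% of all probe sets. Probe sets of 1 gene are annotated to the same gene and are not independent. Several of the 7 genes also varied together over the 8 arrays, Hspa8 and Hsph1 with Pearson's r = 0.95, so the genes are not independent either. Whether each reads only the RNA of that gene was not tested.

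Hspe1 and Hspd1 encode the mitochondrial chaperonin. Hspe1 encodes HSP10, the lid of the mitochondrial folding chamber. Its log2 level was 10.68, 10.58, 11.10 and 10.80 in Control replicates 1 to 4 and 10.71, 10.35, 10.47 and 10.56 in Sca1-HGAL replicates 1 to 4. Control replicate 3 was the highest array, and the groups overlapped through Sca1-HGAL replicate 1. The mean was 10.79 ± 0.22 (SD, n = 4) in Control and 10.52 ± 0.15 (SD, n = 4) in Sca1-HGAL, a log2 fold of -0.27 (SE 0.12, 95% interval -0.53 to -0.01, limma adjusted p = 0.50), or 83% of the Control level. Without Control replicate 3 the fold was -0.17 (adjusted p = 0.74). The other Hspe1 probe set had 9.28, 9.28, 9.55 and 9.44 in Control and 9.20, 9.23, 9.20 and 9.20 in Sca1-HGAL arrays. Here all 4 Sca1-HGAL arrays lay below all 4 Control arrays, with a log2 fold of -0.18 (SE 0.07, adjusted p = 0.47). Separation in this direction was found for 2.3% of all probe sets.

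Hspd1 encodes HSP60, the barrel of the same chamber. Its log2 level was 10.14, 9.98, 10.18 and 9.93 in Control and 9.97, 9.59, 10.12 and 9.82 in Sca1-HGAL replicates 1 to 4. The groups overlapped, and Sca1-HGAL replicate 2 was the lowest array. The log2 fold was -0.18 (SE 0.11, 95% interval -0.43 to 0.06, adjusted p = 0.65). It was -0.09 without Sca1-HGAL replicate 2 (adjusted p = 0.89) and -0.26 without Sca1-HGAL replicate 3 (adjusted p = 0.38). The other Hspd1 probe set had -0.14 (SE 0.17). It was at 8.72 in Sca1-HGAL replicate 2 and between 9.10 and 9.51 on the other 7 arrays. The reference gene table names 7 pseudogenes after Hspe1 and 5 after Hspd1, and whether the probes also match these was not tested. The 2 Hspe1 probe sets are both annotated to Hspe1 alone.

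None of the inducible cytosolic genes passed the adjusted threshold. Their levels differed widely among arrays of the same group, apart from Hsp90aa1 in the Control arrays (SD 0.07, n = 4). Hsph1 encodes HSP110, which resets HSP70 by exchanging its nucleotide. Its log2 level was 9.55, 8.98, 8.88 and 8.78 in Control and 8.45, 8.21, 9.85 and 8.74 in Sca1-HGAL replicates 1 to 4. The highest and the lowest array both belonged to the Sca1-HGAL group, and replicate 3 of that group stood at 2.61 times the mean level of its other replicates. The mean was 9.05 ± 0.34 (SD, n = 4) in Control and 8.81 ± 0.72 (SD, n = 4) in Sca1-HGAL, a log2 fold of -0.24 (SE 0.32, 95% interval -0.94 to 0.47, adjusted p = 0.86). The interval holds both lower and higher levels in Sca1-HGAL. Without Sca1-HGAL replicate 3 the fold was -0.58 (SE 0.19, adjusted p = 0.29), without Sca1-HGAL replicate 2 it was -0.03 (adjusted p = 0.99) and without Control replicate 1 it was -0.07 (adjusted p = 0.98).

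Hspa1a encodes the stress-inducible HSP70. Its log2 level was 7.37, 7.20, 6.84 and 7.11 in Control and 7.04, 7.08, 7.71 and 6.94 in Sca1-HGAL replicates 1 to 4. Sca1-HGAL replicate 3 was again the highest array, and Control replicate 3 was the lowest. The log2 fold was 0.06 (SE 0.17, 95% interval -0.32 to 0.44, adjusted p = 0.95). It turned to -0.11 without Sca1-HGAL replicate 3 and to -0.04 without Control replicate 3. The probe set shared by Hspa1a and Hspa1b had 8.73, 8.50, 8.34 and 8.36 in Control and 8.35, 8.37, 9.35 and 8.56 in Sca1-HGAL arrays, so replicate 3 of the Sca1-HGAL group stood highest there too. A fit over all rows of the table gave it a log2 fold of 0.17, with an SE of 0.22 and a limma adjusted p = 0.86. This probe set cannot part the 2 genes.

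Dnajb1 encodes the J-domain protein HSP40, which hands clients to HSP70. The Dnajb1 log2 level was 9.21, 9.02, 8.49 and 8.65 in Control and 8.54, 8.66, 9.05 and 8.68 in Sca1-HGAL replicates 1 to 4. Control replicates 1 and 2 and Sca1-HGAL replicate 3 were the 3 highest arrays, so the high values came from both groups. The log2 fold was -0.11 (SE 0.16, 95% interval -0.48 to 0.25, adjusted p = 0.88), and 0.01 without Control replicate 1.

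Hsp90aa1 encodes the inducible HSP90 alpha. Log2 levels of Hsp90aa1 were 11.51, 11.33, 11.43 and 11.43 in Control and 11.24, 10.92, 11.65 and 11.27 in Sca1-HGAL replicates 1 to 4. Of the Sca1-HGAL arrays, 3 lay below every Control array and replicate 3 lay above every Control array. The SD was 0.07 (n = 4) in Control and 0.30 (n = 4) in Sca1-HGAL, and the log2 fold was -0.16 (SE 0.13, 95% interval -0.45 to 0.13, adjusted p = 0.76). It was -0.28 without Sca1-HGAL replicate 3 (adjusted p = 0.31) and -0.04 without Sca1-HGAL replicate 2 (adjusted p = 0.97). The other Hsp90aa1 probe sets had -0.39 (SE 0.16, adjusted p = 0.49) and -0.27 (SE 0.13, adjusted p = 0.55). The first of these was the most negative of the 13 probe sets, and the main probe set was the nearest to 0 of the 3 for this gene. Whether probes of Hsp90aa1 or Hspa8 also match copies of these genes elsewhere in the genome was not tested.

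Hspa8 encodes HSC70, the constitutive HSP70 of the cytosol. Arrays read log2 levels of 13.29, 13.14, 13.17 and 13.04 in Control and 13.09, 12.90, 13.37 and 13.11 in Sca1-HGAL replicates 1 to 4. Both extremes lay in the Sca1-HGAL group, at replicates 3 and 2. The log2 fold was -0.04 (SE 0.10, 95% interval -0.26 to 0.17, adjusted p = 0.93), and 0.03 without Sca1-HGAL replicate 2. This interval was the narrowest of the 7 genes. The other Hspa8 probe sets had -0.23 (SE 0.15) and -0.12 (SE 0.10), and 2 further probe sets named to Hspa8 together with small nucleolar RNA genes of its introns had -0.02 and 0.36 when fitted with all rows.

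**Figure D2:**
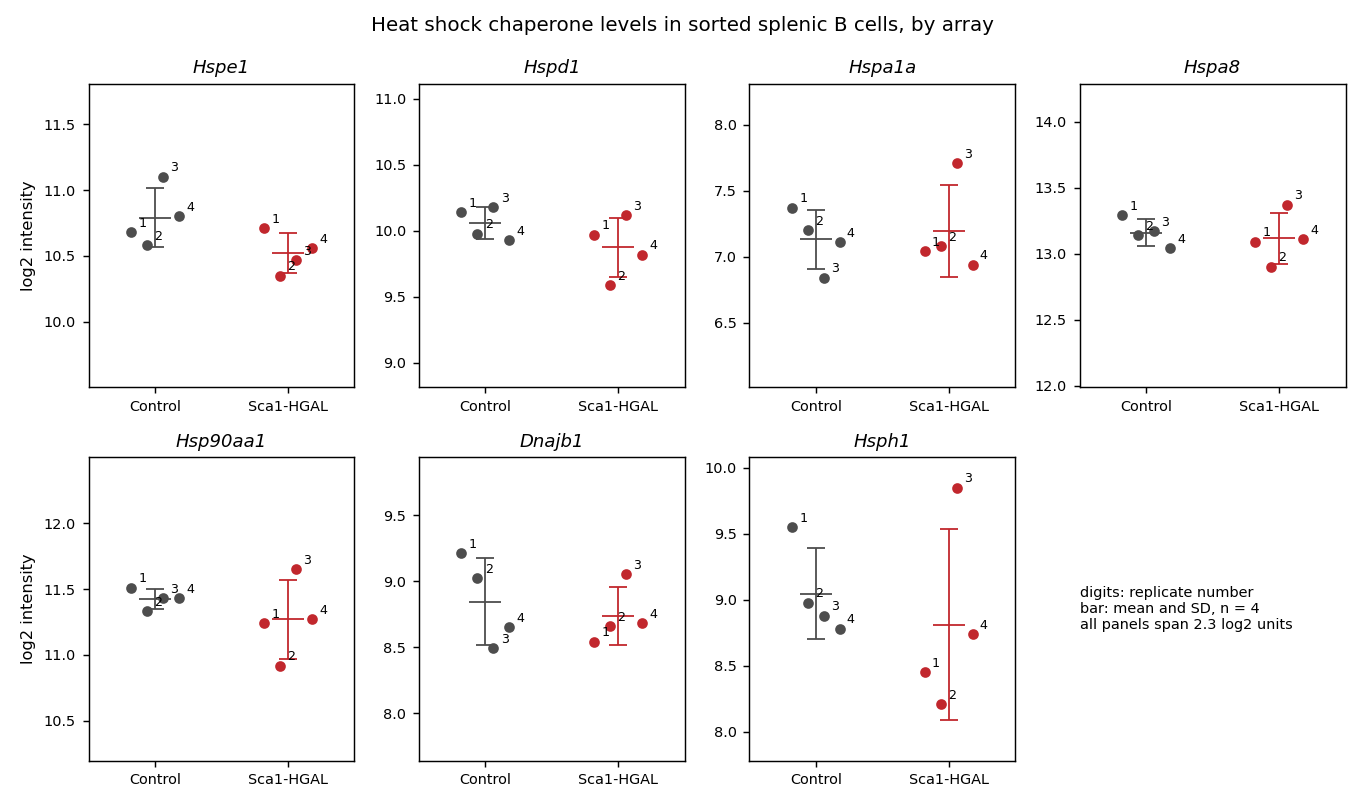
Log2 intensity (y axis) of the main probe set of 7 chaperone genes on 4 Control and 4 Sca1-HGAL arrays (x axis), with the replicate number at each point and bars for the mean and SD. The groups overlap in every panel, and Sca1-HGAL replicate 3 is the highest array for Hspa1a, Hspa8, Hsp90aa1 and Hsph1.

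**Figure D3:**
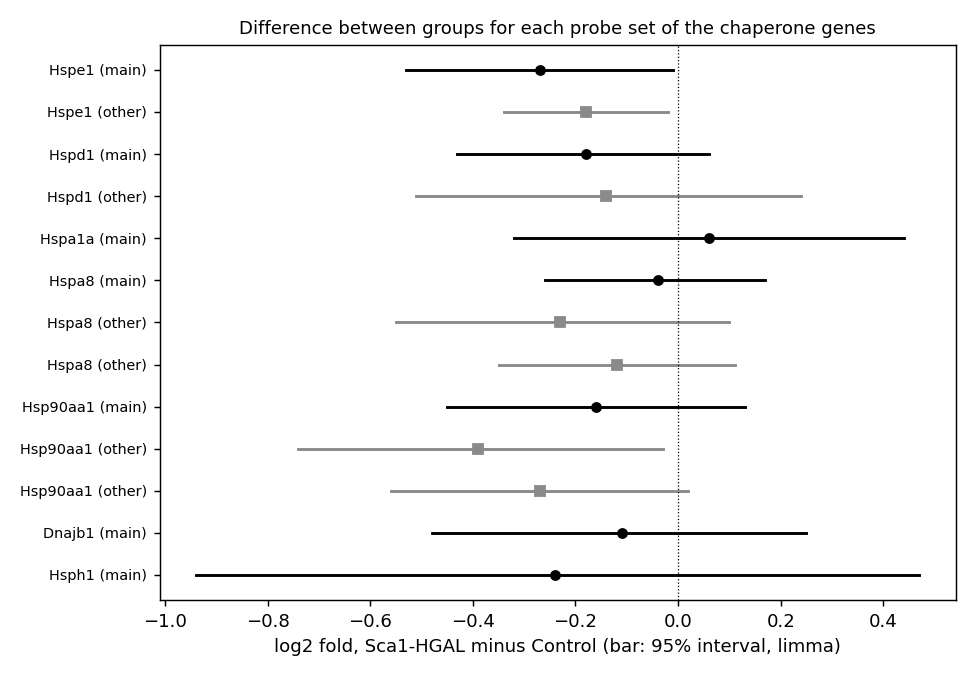
Log2 fold between the groups (x axis, Sca1-HGAL minus Control) with its 95% interval from limma for the 13 probe sets of the 7 genes (y axis), main probe sets in black. The values run from -0.39 to 0.06, and the intervals of both Hspe1 probe sets and 1 Hsp90aa1 probe set end below 0.

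Differences among arrays within a group were large for these genes. The SD within groups of Hsph1 was 0.57, and 0.702% of the 19937 genes had a larger one. It was 0.29 for Hspa1a and 0.28 for Dnajb1, exceeded by 4.02% and 4.32% of genes, and 0.15 for Hspa8, exceeded by 25.4%, against a median of 0.11 over all genes. Sca1-HGAL replicate 3 was the highest of the 8 arrays for 4 of the 7 genes, and for 15.7% of all genes. Control replicate 1 was highest for 1 gene and second for 5. Sca1-HGAL replicate 2 was the lowest array for 5 of the 7 genes and for 10.9% of all genes. Over all 13 probe sets, Control replicate 1 and Sca1-HGAL replicate 3 were each highest for 5, Control replicate 3 for 3, and Sca1-HGAL replicate 2 was lowest for 10.

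The genes did not share 1 array pattern. As a measure of likeness over the 8 arrays, which share any difference in handling, Pearson's r was 0.95 between Hspa8 and Hsph1, 0.89 between Hspa8 and Hsp90aa1 and 0.80 between Hspa1a and Dnajb1. Without Sca1-HGAL replicate 3 these were 0.91, 0.84 and 0.89, while r between Hspa1a and Hspa8 went from 0.66 to 0.31. Hspe1 had r of 0.39 to Hsp90aa1, 0.16 to Hspa8, 0.02 to Hsph1, -0.39 to Dnajb1 and -0.48 to Hspa1a. Without Sca1-HGAL replicate 3 these were 0.73, 0.51, 0.36, -0.30 and -0.37, so the low values to Hsp90aa1, Hspa8 and Hsph1 rested largely on that array. Control replicate 3 was the highest array for Hspe1 and Hspd1 and the lowest for Hspa1a and Dnajb1. Hspe1 and Hspd1, whose start regions overlap, had r = 0.63, or 0.82 without Sca1-HGAL replicate 3, and Hspd1 was nearer to Hsp90aa1, with r = 0.88.

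Among all genes, Stip1 was the most alike to Hspa8, with r = 0.973 over 8 arrays, and the second for Hsph1, with r = 0.980. Stip1 encodes HOP, which links HSP70 to HSP90. The log2 level of Stip1 was 10.37, 10.16, 10.17 and 9.96 in Control and 9.92, 9.74, 10.63 and 10.01 in Sca1-HGAL replicates 1 to 4. Ppp1r13b was nearest to Hsph1, with r = 0.989, Lin54 to Hsp90aa1, with 0.987, Lrrfip1 to Dnajb1, with 0.979, Ect2 to Hspe1, with 0.961, and Csnk1a1 to Hspd1, with 0.953. For Hspa1a, Ces1a was second, with 0.974, the gene before it having a predicted or clone-derived symbol, which the naming rule passed over. These likenesses are out of 19936 other genes, carry no test and describe these arrays only.

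**Figure D4:**
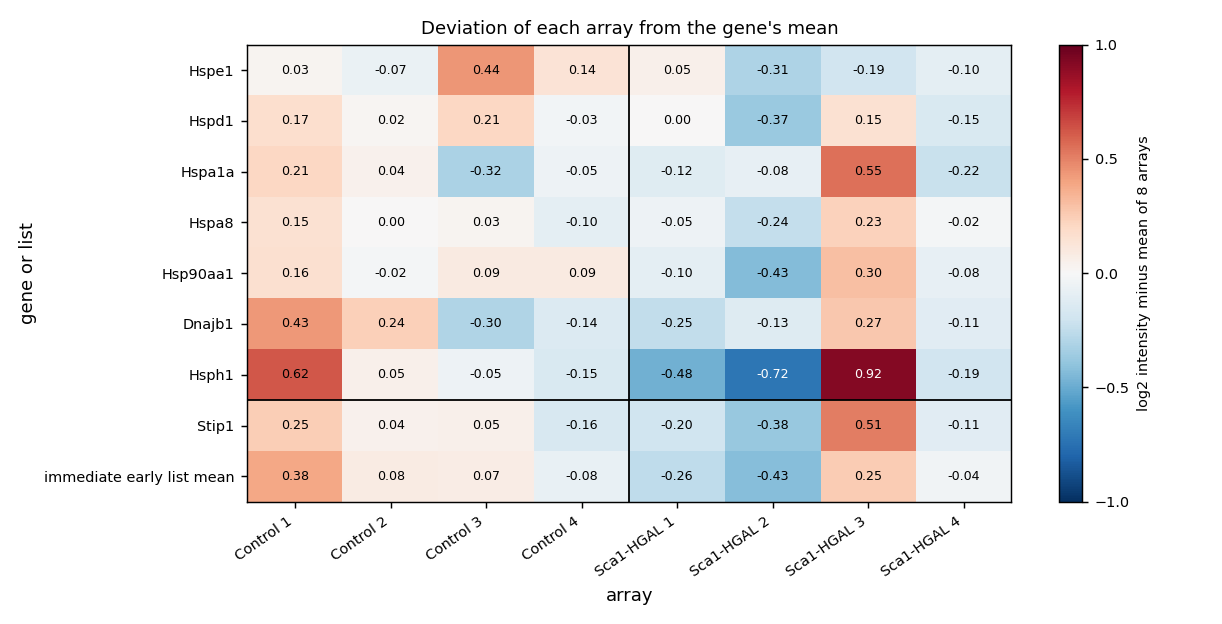
Deviation of each array (x axis) from the gene's mean log2 intensity over 8 arrays, for 7 chaperone genes, Stip1 and the mean of 20 immediate early genes (y axis), with colour and printed values. Sca1-HGAL replicate 3 and Control replicate 1 are above the mean and Sca1-HGAL replicate 2 below it for Hsph1, Hspa8, Hsp90aa1, Stip1 and the immediate early mean, while Hspe1 is highest in Control replicate 3.

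Immediate early genes, which cells switch on within minutes of handling or stimulation, were as a mean highest on 2 arrays that were also the highest for Hsph1, in the other order, and lowest on the same array. Of the 20 genes, 12 were highest in Control replicate 1 and 6 in Sca1-HGAL replicate 3, and 10 were lowest in Sca1-HGAL replicate 2, so single genes did not all follow the mean. The mean log2 level of the 20 listed genes was 9.99 in Control replicate 1 and 9.86 in Sca1-HGAL replicate 3, the highest arrays, and 9.18 in Sca1-HGAL replicate 2, the lowest. None passed the adjusted threshold, and 17 of 20 had a negative log2 fold, against 43.6% of all genes, with a median of -0.24. An unadjusted p under 0.05 was found for 3 of 20, all lower, against 9.53% of all genes in either direction and 4.06% of all probe sets lower, namely Ier5 at -0.26 (SE 0.07, adjusted p = 0.28), Dusp1, a phosphatase of MAP kinases, at -0.61 (SE 0.26, adjusted p = 0.50) and Fosb at -0.42 (SE 0.18, adjusted p = 0.51). The mean of the T cell marker list, with 6 of 9 genes measured, was lowest in Sca1-HGAL replicate 3, at 7.06, and next lowest in Control replicate 1, at 7.39, with 7.54 to 8.26 on the other arrays. This was not particular to T cells. The NK cell list mean was 6.01 in Sca1-HGAL replicate 3, its lowest, and 6.18 in Control replicate 1. The neutrophil mean was 6.30 in Control replicate 1, its lowest, and 6.45 in Sca1-HGAL replicate 3. The plasmacytoid dendritic cell mean was lowest in Sca1-HGAL replicate 3, at 8.85. The macrophage and erythroid means were lowest in Control replicate 3, at 7.60 and 7.57. The part of handling or of other cells in the chaperone values was not tested.

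No gene of the wider chaperone network passed the adjusted threshold. The counts of negative and positive folds given here stand beside 43.6% negative over all genes. Of 20 HSP90 family members and co-chaperones, 15 had a negative log2 fold, with a median of -0.04. Unc45a, at 0.18 (SE 0.08), was the single gene of that list with an unadjusted p under 0.05. Chordc1 had -0.31 (SE 0.19), and its level was 10.07 in Control replicate 1, 9.84 in Sca1-HGAL replicate 3 and 8.97 in Sca1-HGAL replicate 2. Of 11 further HSP70 and HSP110 family genes, 7 were negative. Hspa14, a ribosome-associated HSP70, had -0.21 (SE 0.07, adjusted p = 0.35) with all Sca1-HGAL arrays below Control, and Hspa12a had 0.49 (SE 0.22, adjusted p = 0.51) with Sca1-HGAL replicate 1 at 8.01 and the other Sca1-HGAL arrays between 6.88 and 7.18, all above the Control arrays. Separation with Sca1-HGAL above was found for 3.15% of all probe sets, and with Sca1-HGAL below for 2.3%. The separated genes were named for the smallest p of their lists, a choice that favours separated groups. Of 15 HSP70 co-chaperones, 9 were positive, with Bag4 at 0.17 (SE 0.06, adjusted p = 0.42) and all Sca1-HGAL arrays above Control. Of 37 J-domain genes other than Dnajb1, 24 were positive, with a median of 0.04, Dnajc1 at -0.20 (SE 0.07), Dnajc19, of the mitochondrial import motor, at 0.20 (SE 0.08) and Dnaja4 at 0.30 (SE 0.13). Dnaja1, a partner of HSC70 picked after its values were seen, was at 10.41 in Control replicate 1, 10.42 in Sca1-HGAL replicate 3 and 9.50 in Sca1-HGAL replicate 2, with a log2 fold of -0.19 (SE 0.21).

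The other folding compartments gave medians near 0. The 17 genes of the CCT chaperonin, which folds actin and tubulin, and of prefoldin and its relatives had a median of 0.02, with Pdcl at 0.24 (SE 0.08, adjusted p = 0.41) and again all Sca1-HGAL arrays above Control. The 18 measured genes of mitochondrial folding, import and proteolysis had a median of 0.00, with Tomm20, an import receptor, at -0.45 (SE 0.16, adjusted p = 0.42) and Hspa9, the mitochondrial HSP70 that works beside HSP60, at 0.07 (SE 0.06). The 20 endoplasmic reticulum genes had a median of 0.01, with Pdia4 at 0.28 (SE 0.17) and Herpud1 at 0.14 (SE 0.07), and the 10 small heat shock protein genes a median of 0.03. Among 8 heat shock factors and regulators, Hsf2, which can pair with HSF1, had -0.38 (SE 0.16, adjusted p = 0.50), from 7.65 to 8.03 in Control and from 6.90 to 7.72 in Sca1-HGAL arrays. Hsf2bp had 0.15 (SE 0.06, adjusted p = 0.50), with all Sca1-HGAL arrays above Control. Of 20 growth genes of ribosome making and MYC, 15 were negative, against 43.6% of all genes, with a median of -0.06. Eif4a1 had -0.23 (SE 0.07, adjusted p = 0.33) with all Sca1-HGAL arrays below Control, and Myc had -0.40 (SE 0.19, adjusted p = 0.54). Of all probe sets, 2.3% were separated with Sca1-HGAL below and 3.15% with Sca1-HGAL above.

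Over the series, the median intensity of an array ranged from 145.2 to 151.4. The sorted cells had high B-cell markers, while markers of T cells, macrophages and neutrophils were measured in both groups. The B-cell list mean was from 13.12 to 13.16 in Control and from 13.08 to 13.10 in Sca1-HGAL arrays, without overlap. Of its 7 measured genes, 6 were lower and 1 higher in value, with a median log2 fold of -0.04, and none passed the adjusted threshold. Cd79a had -0.11 (SE 0.06, adjusted p = 0.57), with all Sca1-HGAL arrays below Control, as for 2.3% of all probe sets. Neutrophil markers were higher in value for all 8 genes, with a median log2 fold of 0.38, a list mean from 6.30 to 6.84 in Control and from 6.45 to 7.49 in Sca1-HGAL. None passed the adjusted threshold, and 5 of 8 had an unadjusted p under 0.05. That share was 9.53% of all genes in either direction and 5.53% of all probe sets higher. The median log2 fold was 0.14 for T cell, -0.19 for NK cell, 0.09 for macrophage and monocyte, -0.06 for plasmacytoid dendritic cell and -0.06 for erythroid markers, and none of these genes passed. These medians are over genes that went both ways. Of 6 erythroid markers 3 were measured, with Alas2 at 0.88 (SE 0.43, adjusted p = 0.56), Klf1 at -0.06 and Epb42 at -0.30. Alas2 ranged from 9.43 to 12.00 in Control and from 11.25 to 11.78 in Sca1-HGAL arrays. Of the 7 macrophage and monocyte genes, 4 were higher and 3 lower in value. Adgre1, a macrophage marker, stood at 1.01 (SE 0.19, adjusted p = 0.12), while Csf1r and C1qb were each at -0.18. All Sca1-HGAL arrays lay above Control for Adgre1, as they did for 3.15% of all probe sets. Of 5 plasmacytoid dendritic cell markers, 3 were lower and 2 higher. Siglech, at -0.68 (SE 0.21, adjusted p = 0.34), and Ccr9, at -0.83 (SE 0.23, adjusted p = 0.29), had all Sca1-HGAL arrays below Control. Separation in this direction was found for 2.3% of all probe sets, and Tcf4 was at 0.22. Of 6 NK cell markers, 4 were lower and 2 higher, with Gzma at -0.77 (SE 0.20, adjusted p = 0.27) and overlapping groups. The part of these markers in the chaperone values was not tested. In bulk RNA, fewer cells of a type and less RNA per cell cannot be told apart. Control replicates 2 and 4 had Xist at 12.17 and 12.18, against 5.28 to 5.65 on the other 6 arrays, and the Y-linked Eif2s3y at 4.22 and 3.96, against 10.21 to 10.61. The labels give no sex. Without these 2 arrays, 6 of the 7 chaperone genes were still negative, with a median of -0.20, and none passed. Hspe1 was then at -0.37 (SE 0.14, adjusted p = 0.60), Hspd1 at -0.28 (SE 0.14, adjusted p = 0.65), Hspa8 at -0.11 (SE 0.13, adjusted p = 0.85) and Hsph1 at -0.40 (SE 0.42, adjusted p = 0.84).

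**Figure D5:**
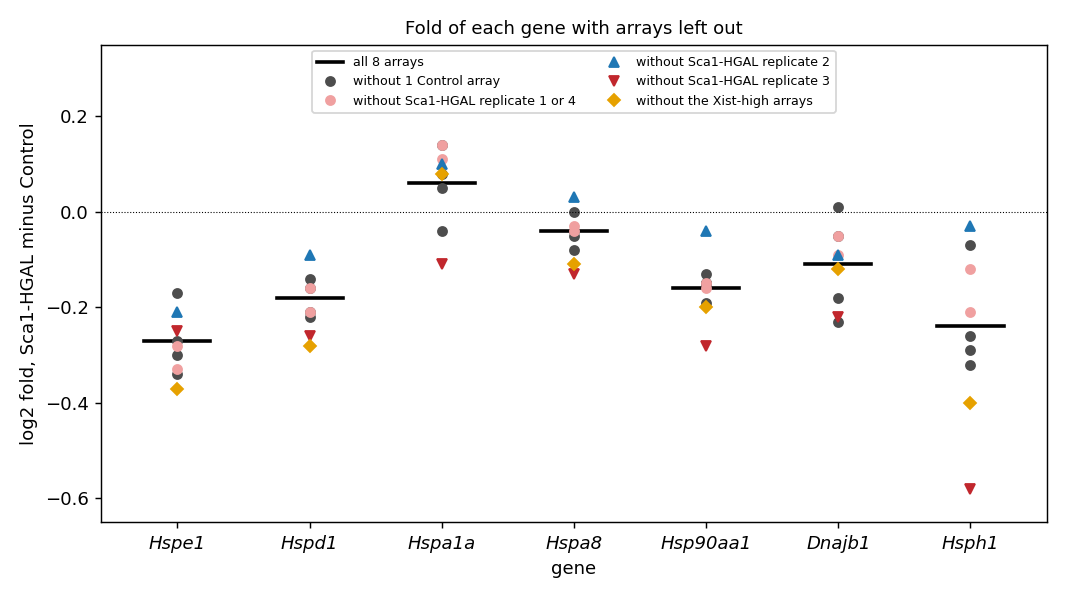
Log2 fold (y axis, Sca1-HGAL minus Control) of 7 chaperone genes (x axis) with all 8 arrays (bar), with each array left out in turn and without the 2 Xist-high arrays. Leaving out Sca1-HGAL replicate 3 moves Hsph1 from -0.24 to -0.58, and leaving out Sca1-HGAL replicate 2 moves it to -0.03.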

How the data were processed

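Affymetrix Mouse Gene 1.0 ST arrays measured total RNA of 4 Sca1-HGAL and 4 Control samples, grouped by their titles. The authors deposited RMA intensities, per the submitters' processing notes. Its version, and the annotation, were not given in the sources used. The intensities were linear, from 4.94 to 24302, so log2 was taken here without a pseudocount. RMA removes a shift that most genes share and shrinks folds of dim probe sets.

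The platform table gave 1 symbol to 21640 of 34760 probe sets, several to 1321 and did not list 11799. Those with 1 symbol entered a moderated linear model (limma 3.58.1, R 4.3.3, two-sided, Benjamini-Hochberg, threshold 0.05), and a gene was represented by its probe set with the highest mean. The fit recovered known changes in simulated data. Those changes were larger than any chaperone fold reported here, so this check does not cover folds of that size. Members and lists were chosen with earlier results of these data known. Named genes were all members, up to 3 per list by p and, for each member, up to 3 most alike by Pearson's r over 8 arrays. A missing list symbol was looked up by synonym. The labels do not pair the samples by replicate number, and the main fit used no pairing. Correlations of deviations between arrays of the same number were -0.17, 0.04, -0.13 and -0.04, with too few arrays to settle whether samples were paired. Start windows came from RefSeq (GRCm38.p6). No filter was set on dim probe sets. Precision is limited by the 4 arrays per group, and alternatives are given in the closing section.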

Additional observations from a re-analysis of the deposited data

Results flagged for a closer look

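In 138 groups of 4 values checked (member probe sets and the genes named from the lists), 9 held an array far from the other 3 of its group. About 6.9 would be expected for independent groups not picked by their values. The groups here share genes and arrays, and the list genes were picked by p, so that number is a rough guide only. In log2 levels, 2 of the 9 were probe sets that name a chaperone gene. The second Hspe1 probe set was highest in Sca1-HGAL replicate 2 at 9.23, with the others at 9.20, a gap that is small in size. A probe set named to Hspa8 together with Snord14c and Snord14d was highest in Sca1-HGAL replicate 3 at 10.72, with the others from 9.79 to 9.89. Sca1-HGAL replicate 1 was highest for Cryab, a small heat shock protein, at 8.14, with the others from 6.75 to 6.80, and for Gzma at 6.41. Adgre1 was highest in Sca1-HGAL replicate 2 at 9.36 and Csf1r in Sca1-HGAL replicate 4 at 7.85. Control replicate 3 was highest for Myc at 12.03 and Tcf4 at 11.03, and Control replicate 4 for Epb42 at 7.79.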

How the results depend on the processing

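Under 19 alternatives, 133 values of the 7 genes were recomputed. None passed the adjusted threshold, and 4 changed sign, all of them on leaving out 1 array. Hspa1a, at 0.06, ranged from -0.11 to 0.14 over the 8 settings without 1 array, Hspa8, at -0.04, from -0.13 to 0.03, and Dnajb1, at -0.11, from -0.23 to 0.01. Hspe1 ranged from -0.34 to -0.17, Hspd1 from -0.26 to -0.09, Hsp90aa1 from -0.28 to -0.04 and Hsph1 from -0.58 to -0.03. The number of genes with a negative fold was 5 to 7 over all settings. The count of all probe sets past the threshold, 1 in the fit reported, was 12 with array weights, 6 with the replicate block, 0 with an ordinary linear model (where 1893 had an unadjusted p under 0.05), 2 when probe sets of a gene were averaged, 2 without the Xist-high arrays, 9 at an adjusted p under 0.10, and from 1 to 40 with 1 array left out, the 40 without Sca1-HGAL replicate 3. The cause was not tested. With the replicate block, which rests on shared numbers only, no chaperone gene passed, and Hspd1 had -0.18 (SE 0.08, limma adjusted p = 0.59). With 4 arrays per group, the interval of a fold is set by the spread among arrays and was widest for Hsph1.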
